A study of Homo sapiens with 7 samples.

Results

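The genes described here encode translation factors and poly(A)-binding proteins, and the measurement is the reads of eIF3a-crosslinked RNA listed at each of them. They are EIF3A, EIF4A1 and EIF4G2 (initiation), EEF1A1, EEF2, EIF5A and its copy EIF5AL1 (elongation), and PABPC1 and PABPC4 (poly(A) binding). Members were chosen by position: every read cluster of the deposited hg19 list that overlapped the window of a gene on that gene's strand was taken. All 9 genes had clusters, 24 in all, out of 3566 on the primary chromosomes, and 0 clusters lay on the opposite strand of the same windows. The 24 clusters held 548 of the 38419 reads (1.43%) while making up 0.673% of the clusters. No position in the 24 clusters was the start of several reads. A read count here is thus a count of occupied start positions and need not scale with the amount of RNA recovered. Among them, 32 read starts coincide between EIF5A and EIF5AL1 and may be reads counted at both.

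The study held 7 human cell line samples. The reads came from PAR-iCLIP of eIF3a in HEK293T, a human embryonic kidney line, with 2 replicates. In this method 4-thiouridine is built into RNA, ultraviolet light joins protein to the labelled RNA, an antibody (here against eIF3a) pulls the complex down, and the attached RNA fragments are sequenced. In each replicate the cells had 100 mM 4-thiouridine (as the labels state it) for 8 h and were irradiated at 354 nm. The other 5 samples were m6A libraries and were not analysed here: 1 of heat-shocked HEK293T, and 2 heat-shocked and 2 control samples of the liver carcinoma line HepG2. Reads in the eIF3a list carry no replicate number, so no value below has a replicate error and no test between conditions was possible. No control library was used here, and the abundance of each mRNA was not measured.

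eIF3 is the large complex that brings the small ribosomal subunit to an mRNA, and eIF3a is its scaffold subunit. The genes listed here act around that step: eIF4A unwinds the 5′ leader, eIF4G-type proteins bridge mRNA and eIF3, elongation factors drive the ribosome along the coding sequence, and cytoplasmic poly(A)-binding proteins coat the tail and contact eIF4G. Many mRNAs of the translation machinery, those of EEF1A1, EEF2 and PABPC1 among them, begin with a 5′ terminal oligopyrimidine (TOP) tract, a C followed by an unbroken run of pyrimidines through which their own translation is regulated.

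RefSeq sequences around gene starts are shown for the pair of elongation factors whose start carries such a tract, beside EIF4A1, whose start does not. Each line runs from 15 bases before to 10 bases after the start (build GRCh38.p14, printed 5′ to 3′ on the gene's strand), and capitals mark a C at the start with at least 4 further C or T letters behind it.
EEF1A1: gtcgccgtgaacgttCTTTTTCgca
EEF2: gttgacgtcagcgttCTCTTCCgcc
EIF4A1: aggcgggcactccgccctagtttct
The run was 7 letters long in EEF1A1 and in EEF2. The start of EIF4A1 had a run of 3 letters, below the length asked for. The table held starts for 6 of the 9 genes, 12 starts in all, of which 6 were of EIF5A. It held none for PABPC1, PABPC4 and EIF3A, so these genes were not checked for the tract. Of the 12 starts, these 2 were the ones with the tract, and 1429 of the 35116 starts in the table (4.07%) had it. The match is a description of letters at annotated starts. Since the clusters are on hg19, no cluster was placed on these letters.

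EIF4G2 and PABPC1 had the most reads, and EIF3A, the gene of the immunoprecipitated protein, had the fewest. Reads are counted over all clusters of a gene, with 95% exact Poisson intervals that cover counting error only. EIF4G2 had 114 reads (94.0 to 137), PABPC1 had 98 (79.6 to 119) and EIF5A had 89 (71.5 to 110). EEF1A1 and PABPC4 had 76 each (59.9 to 95.1), from 2 clusters in EEF1A1 and 7 in PABPC4. EIF5AL1 followed with 40 reads (28.6 to 54.5), EEF2 with 27 (17.8 to 39.3), EIF4A1 with 16 (9.15 to 25.98) and EIF3A with 12 (6.20 to 21.0). The counts of EIF5A and EIF5AL1 both include 32 read starts that coincide when 1 cluster of each is aligned. Without these clusters EIF5A has 28 reads and EIF5AL1 has 7. As counted, neighbours in this order had overlapping intervals, except for the step from EEF1A1 and PABPC4 down to EIF5AL1.

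Reads were also set against the length of the clusters. That length is itself set by the reads, so density is not an independent scale. In the list, clusters of 80 nt or more had a median of 13.4 reads per 100 nt, against 10.7 in all primary clusters. EEF1A1 had the densest clusters, 36.2 reads per 100 nt (28.5 to 45.3), followed by EIF4G2 with 30.7 (25.3 to 36.9). EEF2, EIF5AL1, EIF5A and PABPC1 lay close together at 26.7, 24.7, 22.9 and 22.1 reads per 100 nt, with overlapping intervals. EIF4A1 had 17.2 (9.83 to 27.9), PABPC4 16.1 (12.7 to 20.2) and EIF3A 10.3 (5.30 to 17.9). Every neighbouring pair in this order overlapped. No position held more than 1 read start, so the Poisson intervals are approximate. The densities of EIF5A and EIF5AL1 both include their 32 coinciding read starts. The interval of EEF1A1 lay above those of EIF5A, PABPC1, EIF4A1, PABPC4 and EIF3A, and that of EIF4G2 lay above those of PABPC4 and EIF3A. The 76 reads of PABPC4 were spread over 471 nt of cluster, and the 76 of EEF1A1 over 210 nt.

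**Figure D1:**
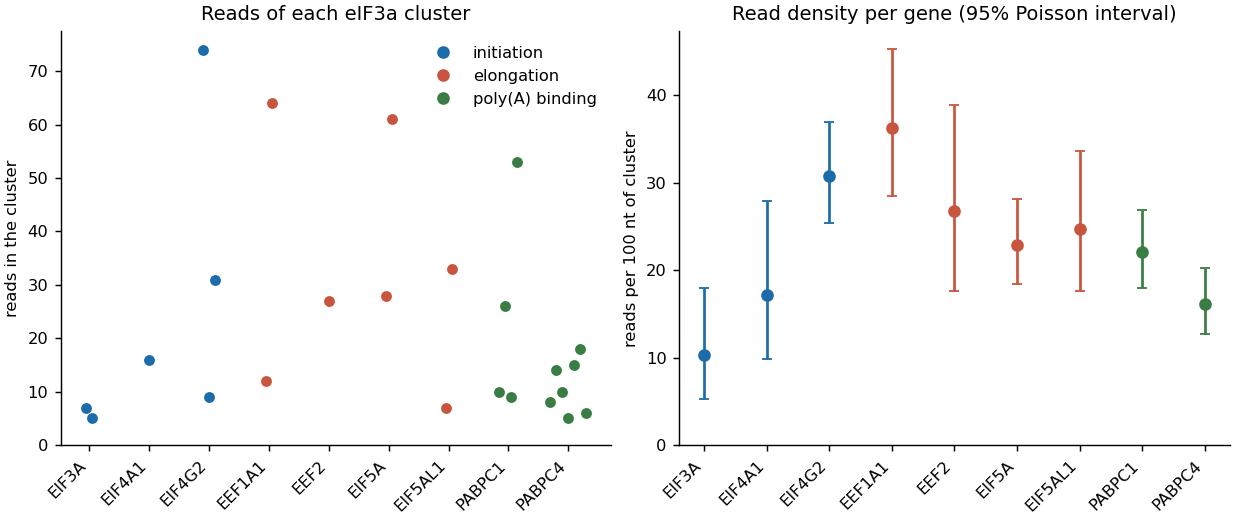
Left, reads in each cluster by gene (1 point per cluster). Right, reads per 100 nt of cluster for each gene, with 95% exact Poisson intervals as bars. Colours give the role of the gene. EIF4G2, EEF1A1, EIF5A and PABPC1 each have a cluster of more than 50 reads, and PABPC4 has 7 clusters of 5 to 18.

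Set beside the whole list, these clusters were large. Their median was 14.5 reads (quartiles 8.75 and 28.8, range 5 to 74) against 6 in all primary clusters (quartiles 4 and 12, range 2 to 172). The score, the highest coverage within a cluster, had a median of 11 (range 5 to 21) against 5 in the list (range 2 to 24). The median density was 18.9 reads per 100 nt against 10.7. At least 12 reads, the upper quartile of the list, were found in 14 of the 24 clusters (58.3%, 95% Wilson interval 38.8 to 75.5) and in 25.8% of all primary clusters. Clusters of 1 gene are not independent, and the genes were proposed with results of these data known, so no test of this difference was made.

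**Figure D2:**
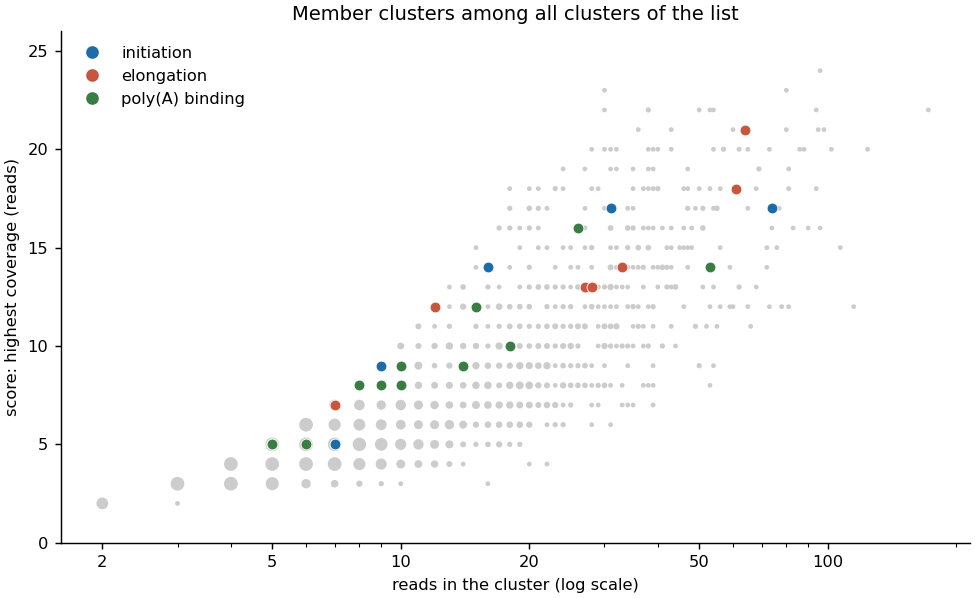
Score (highest coverage, in reads) against reads per cluster on a log scale, for the 24 clusters of the 9 genes (coloured by role) and all other primary clusters (grey, point size growing with their number). The EEF1A1 cluster of 64 reads and score 21 is the highest of the coloured points; EIF3A and the weakest PABPC4 clusters sit at a score of 5.

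Most clusters lay near the 5′ end of their window. Distances are from the 5′ end of the window to the nearest base of the listed interval; the windows stand in for gene ends, since no hg19 annotation was used here, and exon, intron and untranslated-region status were not analysed. The distance ran from 7 to 3741 nt with a median of 594.5 nt, and 17 of 24 clusters began less than 1000 nt from that end. In 6 of the 9 genes the nearest cluster was within 120 nt: EIF5AL1 at 7 nt, EEF2 at 9, EIF3A at 14, PABPC4 at 66, EIF4G2 at 111 and EIF4A1 at 114. In EIF5A, PABPC1 and EEF1A1 it began at 592, 735 and 2765 nt. These values depend on where each window begins. They are also those of listed intervals, and 13 of the 24 clusters were shortened in the list. A shortened cluster may itself begin elsewhere. Where the mRNA starts within a window was not analysed, so they are not distances from an mRNA start. In EIF3A, whose window is 45801 nt long, both clusters began within the first 0.234% of it.

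**Figure D3:**
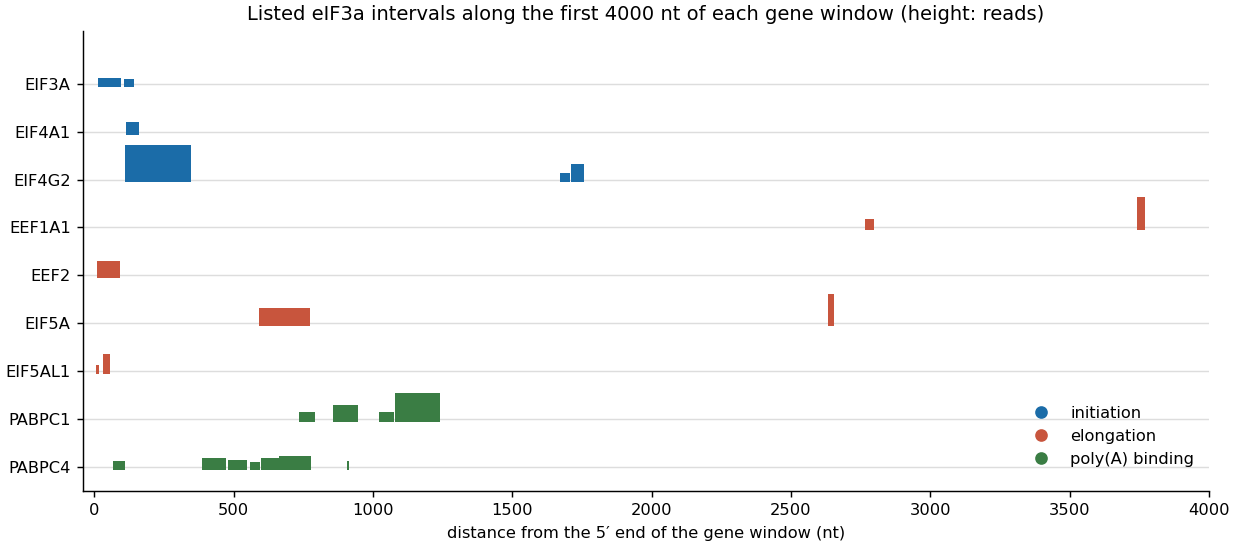
Listed intervals along the first 4000 nt of each gene window, as distance from the window's 5′ end in nt. The width of a block is the listed length, its height grows with the reads of the cluster, and colours give the role. PABPC4 and PABPC1 show chains of neighbouring blocks, and EIF4G2, EEF1A1 and EIF5A each show intervals far apart.

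Among the initiation factors, EIF4G2 stood at the top and EIF3A at the bottom. EIF4G2 (also DAP5 or p97) is a relative of eIF4G that lacks the eIF4E-binding part and takes part in cap-independent initiation. Its cluster nearest the 5′ end, chr11:10830253-10830489 on the minus strand, held 74 reads over 238 nt with a score of 17. Only 23 of the 3566 primary clusters held more reads. It was listed at full length, here meaning all but at most 1 nt. Its coverage rose to 3 main summits, 11 reads high at 40 nt, 15 at 100 nt and 17 at 168 nt from its 5′ end. Beyond a gap of 1324 nt followed a cluster of 9 reads (score 9) at chr11:10828895-10828928. Only 4 nt further lay one of 31 reads at chr11:10828843-10828890, again with a score of 17. Only 34 of 47 nt and 48 of 86 nt of these clusters were listed, so the 4 nt separate shortened intervals. That last cluster packed its reads into 86 nt, 36.0 reads per 100 nt, the 35th highest density of the list. The EIF4G2 reads thus lay in 2 places of the window, with equal highest summits. SNORD97 overlaps EIF4G2 in RefSeq.

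EIF4A1, the helicase of the eIF4F complex, had 1 cluster of 16 reads at chr17:7476114-7476159 on the plus strand. Its score of 14 was high for so few reads, because they stacked: 8 of the 16 began within 8 nt, and 9 neighbouring positions in a row each held a read start. A start here is the left end of a read on the genome. In RefSeq, EIF4A1 overlaps the read-through transcript SENP3-EIF4A1 and 3 small nucleolar RNA genes (SNORA48, SNORA67 and SNORD10), so reads in the window need not all come from EIF4A1 mRNA.

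EIF3A itself had 2 weak clusters. The outer one, chr10:120840247-120840326 on the minus strand, held 7 reads over 81 nt, and the inner one, chr10:120840199-120840233, held 5 reads over 36 nt, 13 nt away. Both scored 5, the median of the list, and both were listed at full length. Their 7 and 5 reads lie on either side of the list median of 6. In RefSeq, EIF3A overlaps NANOS1, LOC124900296 and SNORA19.

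The 4 elongation genes held 232 reads in 7 clusters, with the 32 coinciding starts of EIF5A and EIF5AL1 counted at each. None of the 7 was listed at full length. EEF1A1, which delivers aminoacyl-tRNA to the ribosome, had the highest score of the 9 genes. Its inner cluster, listed as chr6:74229750-74229779 on the minus strand, scored 21 with 64 reads over 172 nt; 11 primary clusters scored higher. Only 30 nt of those 172 were listed, so the place of its summits in the gene is unknown. The coverage along the cluster had summits of 15 reads at 26 nt, 21 at 87 nt and 13 at 123 nt from its 5′ end. Read starts occupied 14 neighbouring positions in a row, a run that 17 other primary clusters exceeded.

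The outer EEF1A1 cluster, chr6:74230723-74230755, was of another shape. Its 12 reads all began within 14 nt, and 10 of those positions were neighbours in a row. All 12 reads overlapped at the summit, so that its score equalled its number of reads. EEF1A1 has many processed copies in the genome, but the larger cluster, which could be searched, shared no stretch of 40 nt with at least 10 read starts with any other listed locus. The smaller one was too short for that search, which in any case sees only loci of the list. At 25 nt and 5 starts, both EEF1A1 clusters matched many other listed loci, some of them with 10 starts in the stretch. Whether any of these matches are reads counted at a processed copy was not tested.

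EEF2, the translocase of elongation, had 27 reads in 1 cluster at chr19:3985379-3985461 on the minus strand, with a score of 13. It lay 9 nt from the 5′ end of the window, and 83 of its 101 nt were listed. The coverage had plateaus of 9 reads centred at 19 nt and 31 nt, fell between these and the summit, and reached 13 at 55 nt. SNORD37, a small nucleolar RNA gene, overlaps EEF2 in RefSeq.

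EIF5A, the hypusine-carrying factor that helps ribosomes past difficult peptide bonds, had its reads in a pair of distant places. At chr17:7210892-7211071 on the plus strand, 28 reads covered 188 nt with a score of 13, with its summit 141 nt from the 5′ end. At chr17:7212934-7212954, 61 reads gave a score of 18 in a cluster of 201 nt, of which 21 nt were listed. EIF5AL1, an intronless copy of EIF5A, had a cluster of 7 reads at chr10:81272357-81272366 and one of 33 reads at chr10:81272382-81272405, scoring 7 and 14. The listed parts were 10 and 24 nt of clusters 35 and 127 nt long.

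Nearly all read starts of the larger EIF5AL1 cluster coincided with a start at EIF5A. When both were laid on each other by their read starts, 32 of the 33 EIF5AL1 starts (97.0%) coincided with a start of the 61-read EIF5A cluster, which is 52.5% of the latter. From position 36 to position 103 of the EIF5AL1 cluster, counted from its 5′ end, the patterns were identical over 68 nt with 26 starts. Position 103 is the last at which a 25-nt read could begin in it. Upstream of that stretch EIF5A had 20 starts in the overlap and EIF5AL1 had 7, with 6 in common. The EIF5A cluster held 29 starts that were not in the EIF5AL1 cluster, and the EIF5AL1 cluster held 1 that was not in EIF5A. Outside the identical stretch, a coinciding start need not be the same read. Which of the loci any common reads came from cannot be told from the list. With both of these clusters left out, EIF5A keeps 28 reads and EIF5AL1 keeps 7.

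**Figure D4:**
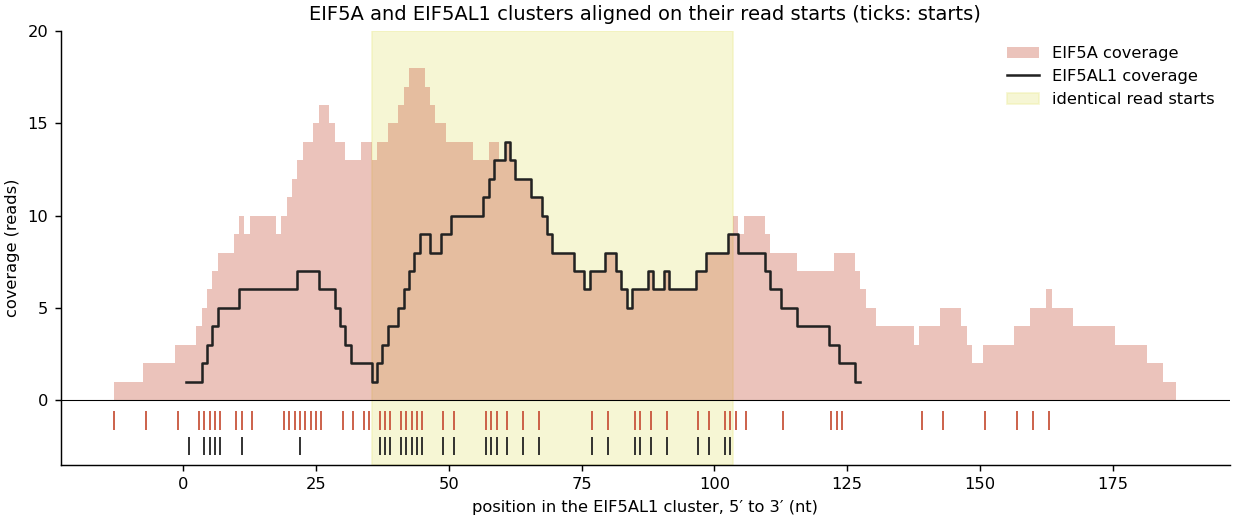
Coverage in reads of the 61-read EIF5A cluster (filled) and the 33-read EIF5AL1 cluster (line), laid on each other by their read starts; the x axis counts nt from the 5′ end of the EIF5AL1 cluster. Ticks under the axis mark read starts, EIF5A above and EIF5AL1 below, and the shaded band is the 68 nt in which the starts are identical.

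PABPC4 and PABPC1 had the most clusters of the 9 genes. PABPC1, the main cytoplasmic poly(A)-binding protein, represses its own translation by binding an A-rich stretch of its 5′ leader. PABPC4 is a related poly(A)-binding protein. PABPC4 had 7 clusters within 841 nt and PABPC1 had 4 within 504 nt. When clusters on a strand less than 1000 nt apart were joined, the list formed 2877 regions, of which 5 held as many as 7 clusters or more and 33 held 4 or more. The PABPC1 region, with 98 reads, ranked 12th of the 2877 by reads, and that of PABPC4, with 76, ranked 43rd. The joined EEF1A1 region also had 76 reads.

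In PABPC1 the reads lay mainly in 2 of the 4 clusters. From the 5′ end, its clusters (chromosome 8, minus strand) held 10, 26, 9 and 53 reads, with scores of 8, 16, 8 and 14. The cluster of 26 reads, chr8:101734106-101734194, had the higher summit, and 13 of its reads began within 14 nt. The one of 53 reads, chr8:101733812-101733970, was broader, 237 nt, with summits of 14 reads at 47 nt, 8 at 136 nt and 14 at 184 nt. The listed intervals of the last pair were separated by 3 nt, and the inner of them was shortened. MIR7705 overlaps PABPC1 in RefSeq.

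In PABPC4 no cluster stood far above the others. From the 5′ end its clusters (chromosome 1, minus strand) held 8, 14, 10, 5, 15, 18 and 6 reads, with scores of 8, 9, 9, 5, 12, 10 and 5. The highest summit belonged to chr1:40041870-40041933, with 15 reads over 65 nt. A gap of 277 nt set the outermost cluster apart, and the next 5 followed each other at gaps of 7, 10, 3 and 2 nt. Of the 7 clusters, 6 were listed at full length, each lacking 1 nt of its profile. The gaps may include such unlisted bases. Whether such neighbours are separate contacts or 1 sparsely covered stretch was not tested. PABPC4-AS1 and SNORA55 overlap PABPC4 in RefSeq.

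The clusters differed in shape as well as in size. The broad ones of EIF4G2, EEF1A1, EIF5A and PABPC1 had several summits, whereas EIF4A1 and the outer EEF1A1 cluster were each a single stack. Runs of 8 or more neighbouring read starts occurred in 8 of the 24 clusters (33.3%) and in 142 of all 3566 (3.98%). Density was not matched in this count. No position in the 24 clusters held more than 1 read start, so coverage could not exceed 25 reads.

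**Figure D5:**
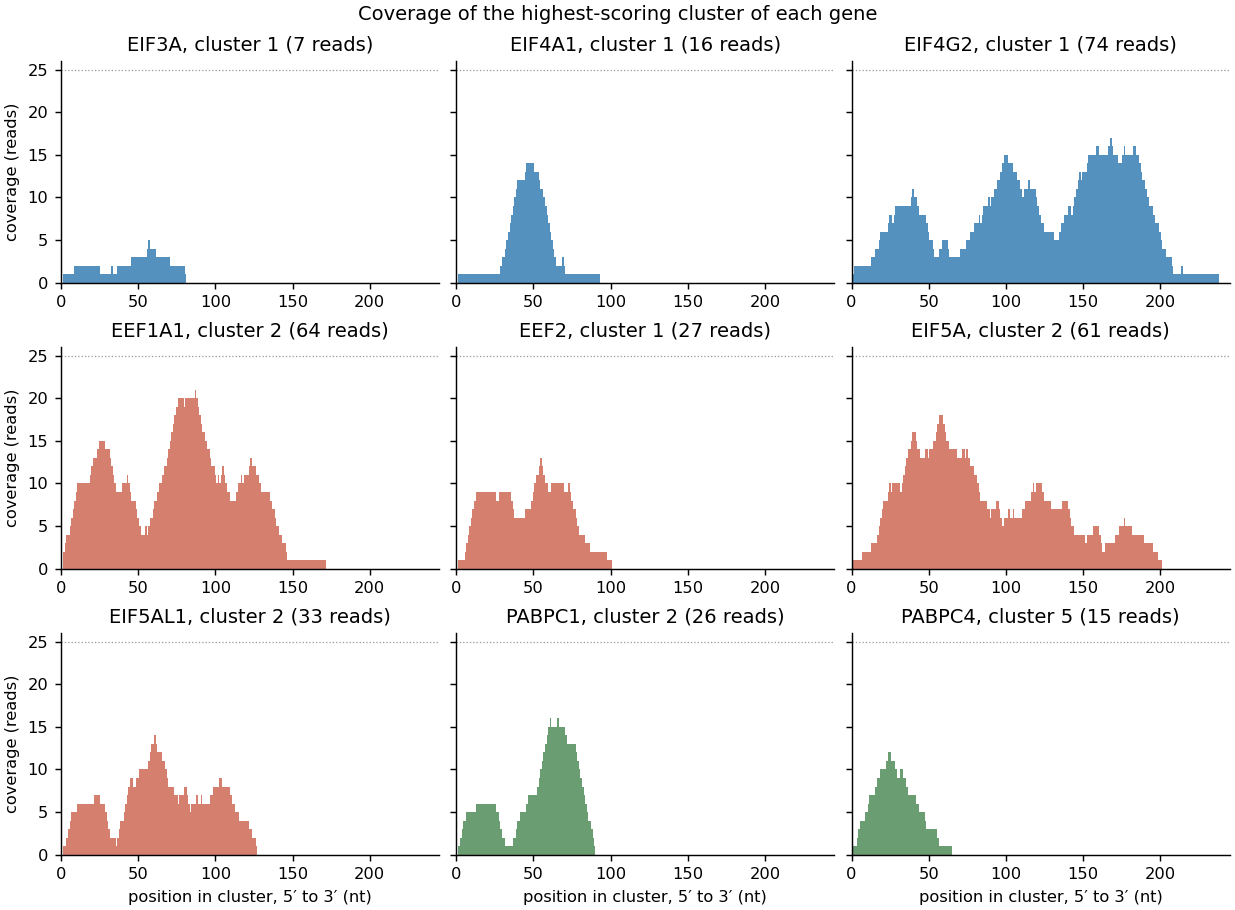
Coverage in reads along the highest-scoring cluster of each gene, in nt from the 5′ end of the cluster on the RNA; colours give the role. The dotted line at 25 reads is the most that 25-nt reads with 1 read per start can reach. EEF1A1 comes closest with 21, EIF4G2 shows 3 summits, and EIF3A stays at 5 or below.

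For 13 of the 24 clusters more than 1 nt was unlisted (54.2%, 95% Wilson interval 35.1 to 72.1), against 42.2% in the list, a difference within the interval. By role, with no test made, 0 of 7 clusters of the elongation genes, 3 of 6 of the initiation genes and 8 of 11 of the poly(A)-binding proteins were listed at full length; within genes the share was mixed, with 2 of 4 in PABPC1 and 1 of 3 in EIF4G2. The shortest listed interval was 2 nt of a 54-nt cluster, the innermost one of PABPC4.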

How the data were processed

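Only the eIF3a PAR-iCLIP list was analysed. Reads were aligned to hg19 with Bowtie, per the submitters' processing notes; not given in the sources used here are the cluster caller, its filters, the handling of duplicate reads and any pooling of the 2 replicates. The signal deposited by the authors is the highest read coverage of a cluster, in whole reads without normalization. Each deposited entry also holds the coverage profile. Entries with 1 profile at 1 place were counted once (4013 entries, 3604 clusters, 3566 on primary chromosomes). Profiles were split into reads of 25 nt. On simulated data, the splitting recovered 3604 of 3604 profiles. The simulated reads were 25 nt long by construction, so this checks the code and not the read length. The search for shared read starts recovered 198 of 200 planted stretches. Planted stretches need not resemble the listed clusters, so this checks the code and not how sensitive the search is on the list. Of the 24 clusters described here, 13 could be searched. Profiles run from left to right on the genome on both strands: stretches recurring on the opposite strand matched in 0 pairs as deposited and in 7 after turning. Minus-strand profiles were therefore turned. Summits are local maxima with a prominence of at least 3 reads. Coordinates count from 1. Library depth is unknown, and reads refer to listed clusters. Poisson and Wilson intervals cover counting error only.

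All 9 genes were named, with the highest-scoring cluster of each described in full (ties broken by reads, then position). The members, gene lists and measures were chosen with earlier results of these data known. Other translation factor genes were not counted, since no hg19 annotation was used here. RefSeq names and starts (GRCh38.p14) were matched by symbol: 9 of 9 genes had a name. Overlapping genes were taken from the RefSeq gene bounds of that build on either strand, not from the hg19 windows. Software: scipy 1.17.1, pandas 2.3.3, numpy 2.4.6 and matplotlib 3.10.9 under Python 3.11.15.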

Additional observations from a re-analysis of the deposited data

How the results depend on the processing

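The number of clusters in the 9 genes was 24 under each of 5 alternatives (interval wholly inside the window, score at or above the list median of 5, entries as deposited, overlapping clusters merged, windows widened by 1000 nt), and 0 on the opposite strand, which is a background and not a count of members. The median reads per cluster was 14.5, and 14 without EIF4G2, 13 without clusters whose starts recur elsewhere. The median distance was 655 nt to the middle of the interval. Of 27 alternatives for reads per gene, 25 stayed within 1.5 times. The other 2 were EIF5A (28) and EIF5AL1 (7) without the clusters that share read starts. The score cut could change no count, since the lowest score of the 24 clusters was 5. Only 13 of the 24 could be searched for recurring starts, so the others could not be left out on that ground. At 25 nt and 5 starts the clusters of EIF5A and EIF5AL1 again formed 1 pair with each other, but many other loci, among them pairs of other genes of the 9, matched too. No replicate could be left out. No paired analysis was possible because reads carry no replicate number.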
